A study of Mus musculus with 18 samples.

Results

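The genes described here encode the non-collagen matrix: elastin and the microfibril proteins around it, fibulins and EMILINs, latent TGF-beta binding proteins, lysyl oxidases, proteoglycans, and the adhesive and matricellular glycoproteins. They were chosen by name, with earlier results of these data known, and are 42 genes of the 46078 in the RNA count table. Each symbol was matched to its Ensembl identifier. Of the 42, 40 passed the filter on low counts (15514 genes did in all), and Aspn and Acan did not. The peak table gave 60 peaks within 1000 bp of an annotated start of 37 of these genes, out of 111664 peaks. Fbln1, Fmod, Aspn, Acan and Tnxb had no such peak.

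The study asked how CARM1, an arginine methyltransferase, and methylation of its substrate NFIB, a transcription factor, act in mouse small cell lung cancer, a neuroendocrine tumor. The control tumors, TKO, carried the floxed alleles Rb1L/L, Rbl1L/L and p53L/L as the strain labels spell them. The paper's results and Cre methods name Rbl2 in place of Rbl1, while its animal methods name Rbl1, so which of them was floxed is not settled here. The alleles were recombined by adenoviral Cre given into the airway at 8 weeks of age, and tumors were taken 28 weeks later. CARM1 knockout libraries (labelled TKO;Carm1) came from mice that carried Carm1L/L as well, and NFIB mutant libraries (labelled TKO;NfibR388K) from mice with a germline change of the arginine that CARM1 methylates to lysine (R388K). All 3 genotypes therefore carried the floxed tumor suppressor alleles, whose loss in these libraries was not checked here. Cre delivered by virus reaches whichever airway cells it infects. Per the study's methods a Cre-activated tdTomato reporter was used to sort tumor cells, although biopsies and cell lines are named there too, with tumors from 3 independent animals per genotype, and each assay had 9 libraries, 3 per genotype. Both mutants were compared with the same 3 TKO libraries, so the comparisons are not independent of each other.

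RNA-seq totals ranged from 15848866 to 20915057 counts assigned to genes and ATAC-seq totals, which measure open chromatin, from 26917178 to 47653979 counts in peaks. A level is given in CPM, the counts of a gene or peak divided by the library's total after TMM scaling, which adjusts totals so that most genes or peaks compare evenly between libraries. Carm1 itself was at 97.7, 103 and 44.5 CPM in TKO and 63.4, 79.1 and 50.8 CPM in the CARM1 knockout (log2 fold change -0.34 ± 0.31 SE, adjusted p = 0.410). A count over the whole gene does not separate the floxed exons from the rest, so it did not check the deletion, and every direction below rests on the libraries being what their labels say. Nfib RNA was lower in both mutants, with log2 fold changes of -2.06 ± 0.40 and -2.49 ± 0.41 (adjusted p = 0.00799 and 0.00325).

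The labelled cell type was checked against its markers. The 12 neuroendocrine markers summed to between 1780 and 4394 CPM in TKO, and to between 33.6 and 51.5 CPM in the NFIB mutant. Their sums were 59.3, 189 and 2018 CPM in the CARM1 knockout, so replicate 3 stood apart. Of the 12, 1 was called lower in the CARM1 knockout and 11 were not called, with values up to 4.44 on the log2 scale. In the NFIB mutant 11 of 12 were called lower, and 0 were called higher in either mutant. Over all genes tested, 18.3% and 23.5% were called lower. The 6 fibroblast markers rose in both mutants (6 of 6 called in each), from sums of 13.1 to 31.3 CPM in TKO to 14250 to 25600 CPM in the CARM1 knockout and 7627 to 17060 CPM in the NFIB mutant. Smooth muscle and pericyte markers summed to at most 11.2 CPM in TKO and at least 111 CPM in the mutants. Their median per library was 0.310 to 1.03 CPM in TKO, 0.758 to 9.02 CPM in the CARM1 knockout, which overlapped, and 4.32 to 8.63 CPM in the NFIB mutant. Of the 6, 3 were called higher in the CARM1 knockout and 2 in the NFIB mutant, and 0 lower in either. Over all genes tested, 20.5% and 22.3% were called higher. Leukocyte markers summed to 4.17 to 54.8 CPM in TKO, 180 to 2670 CPM in the CARM1 knockout and 27.1 to 526 CPM in the NFIB mutant, with Cd3e at 0 in all 9 libraries. Endothelial markers summed to at most 17.4 CPM in any library and Emcn was at 0 throughout. The 6 mesothelial markers summed to 0.399 to 14.9 CPM in TKO, 9.36 to 94.9 CPM in the CARM1 knockout and 54.1 to 100.1 CPM in the NFIB mutant. Lung epithelial markers summed to 15.5 to 46.3 CPM in TKO. They summed to 2.58, 9.33 and 775 CPM in the CARM1 knockout and 999, 170 and 3.05 CPM in the NFIB mutant, on both sides of TKO. Of 7 tested, 0 were called higher and 1 lower in the CARM1 knockout, and 3 higher and 1 lower in the NFIB mutant. The fibroblast markers moved with nearly every gene group below, and their part in the results was not tested. In these bulk libraries, fewer cells of a type and less RNA per cell cannot be told apart.

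Elastic fibers are built from cross-linked elastin laid on a scaffold of fibrillin microfibrils, and give lung tissue its recoil. Fibulins and EMILINs join elastin to that scaffold, lysyl oxidases form the cross-links, and latent TGF-beta binding proteins hold the growth factor in the matrix. Small leucine-rich proteoglycans space collagen fibrils, and large proteoglycans such as versican bind hyaluronan. Fibronectin, tenascins, thrombospondins and the SPARC proteins act between cells and this matrix and are typical products of mesenchymal cells.

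Across the 42 genes the RNA of most was higher in both mutants, while elastin itself was lower. Against TKO, 30 genes rose in the CARM1 knockout, Eln fell and 9 tested genes were not called. In the NFIB mutant 31 rose, Eln and Fbn2 fell and 7 were not called. A gene was called where the adjusted p (edgeR quasi-likelihood test, Benjamini-Hochberg over all 15514 genes) was under 0.1 and the log2 fold change was at least 0.8 in size. Over all genes tested, 20.5% were called higher and 18.3% lower in the CARM1 knockout, and 22.3% and 23.5% in the NFIB mutant. The same 29 genes were higher in both, and Eln was lower in both. The share of all genes called alike in both mutants was not taken. For Mfap2, Mfap4, Fbln1, Ltbp4, Sparcl1 and Spon1 neither mutant was called. Of the rest, Lum was called in the CARM1 knockout, and Loxl4, Vcan and Fbn2 in the NFIB mutant. The median log2 fold change was 4.97 and 5.14 over the 40 genes tested, against -0.03 and -0.05 over all genes. Without CARM1 knockout replicate 3 the counts in that genotype were 31 higher, 29 of them also called with it, and 1 lower.

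Counted library by library, all 6 mutant libraries lay above all 3 TKO libraries for 30 of the 42 genes and below them for 1, Eln. The groups overlapped for 11. Among all genes tested the same separation was found upward for 22.3% and downward for 23.3%. Together these genes took 0.133%, 0.104% and 0.0892% of all RNA counts in the TKO libraries. They took 2.03%, 1.92% and 1.69% in the CARM1 knockout and 1.79%, 2.32% and 1.34% in the NFIB mutant. For 11 of the genes the TKO mean was under 1 CPM, where 3 counts correspond to 0.131 to 0.203 CPM over the 9 libraries. Mfap5 and Fmod, with at most 3 counts in every TKO library, passed the filter only through their mutant libraries. The same can hold for other genes low in TKO, and the counts called higher and the medians include such genes.

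**Figure D1:**
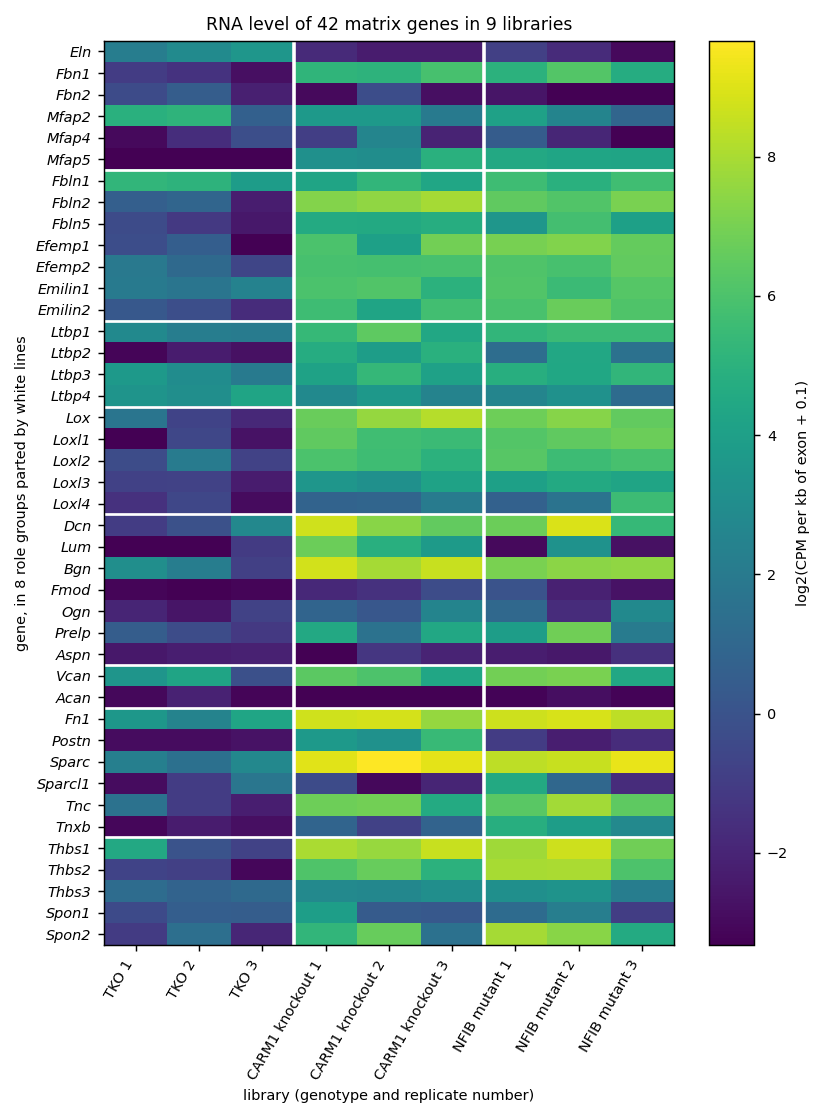
RNA level of the 42 genes (rows, in 8 role groups parted by white lines) in the 9 libraries (columns), as log2 of CPM per kilobase of exon plus 0.1. The 3 TKO columns are dark for most rows, while Eln, near the top, is dark in the 6 mutant columns instead.

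Between genes, levels can be compared only per length, as CPM per kilobase of exon. On that scale Fbln1 led in TKO with 28.9 ± 12 (SD, n = 3), followed by Mfap2 with 22.2 ± 18, Ltbp4 with 12.7 ± 5.8 and Fn1 with 12.5 ± 7.3. These neighbours did not differ beyond their spread. In the CARM1 knockout Sparc led with 644 ± 150, ahead of Fn1 with 360 ± 150 and Bgn with 355 ± 110. Sparc also led in the NFIB mutant, with 438 ± 140, within the spread of Fn1 at 403 ± 67. Of the 4 leading genes in TKO, only Fn1 was called in the mutants.

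Promoters of 5 of these genes are shown because open chromatin at them moved with genotype and each holds letters of a searched motif. They are RefSeq sequences on GRCm38.p6, from 250 bases before to 50 bases after the start, read 5′ to 3′ on the gene's strand. RefSeq promoters were at hand for 27 of the genes (38 promoters, 30 of them overlapped by a start-site peak). Capitals mark matches to 4 searched motifs on either strand, and a match on the opposite strand appears as its reverse complement. For AP-1 the letters searched were TGANTCA. For the NFI family, part of the recognition sequence was used, with the letters TTGGCA. The letters searched for TEAD factors were GGAATG, and for the TATA box they were TATAAA.
Thbs2, minus strand, chr17:14694213-14694512: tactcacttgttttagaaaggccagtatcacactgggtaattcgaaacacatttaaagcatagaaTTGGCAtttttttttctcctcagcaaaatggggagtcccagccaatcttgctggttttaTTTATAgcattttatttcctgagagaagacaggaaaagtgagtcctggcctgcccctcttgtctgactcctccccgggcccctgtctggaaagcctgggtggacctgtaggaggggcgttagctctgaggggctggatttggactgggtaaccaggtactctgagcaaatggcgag
Ogn, plus strand, chr13:49607765-49608064: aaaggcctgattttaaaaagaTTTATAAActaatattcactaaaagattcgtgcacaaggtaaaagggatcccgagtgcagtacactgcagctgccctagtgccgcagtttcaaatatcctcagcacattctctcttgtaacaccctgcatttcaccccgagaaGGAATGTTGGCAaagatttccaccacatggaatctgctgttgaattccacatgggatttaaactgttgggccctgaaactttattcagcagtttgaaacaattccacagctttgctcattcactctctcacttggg
Efemp1, plus strand, chr11:28852955-28853254: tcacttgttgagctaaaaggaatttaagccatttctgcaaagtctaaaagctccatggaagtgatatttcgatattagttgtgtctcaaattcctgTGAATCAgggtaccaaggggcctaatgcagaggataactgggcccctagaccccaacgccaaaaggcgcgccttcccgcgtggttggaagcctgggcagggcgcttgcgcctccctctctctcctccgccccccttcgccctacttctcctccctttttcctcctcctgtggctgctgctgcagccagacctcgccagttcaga
Postn, plus strand, chr3:54360857-54361156: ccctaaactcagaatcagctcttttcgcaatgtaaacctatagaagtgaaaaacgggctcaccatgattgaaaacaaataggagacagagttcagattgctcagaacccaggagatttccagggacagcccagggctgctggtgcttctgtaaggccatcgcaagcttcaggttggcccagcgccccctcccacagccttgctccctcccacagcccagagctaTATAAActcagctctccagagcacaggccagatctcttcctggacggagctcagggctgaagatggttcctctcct
Mfap2, plus strand, chr4:141010174-141010473: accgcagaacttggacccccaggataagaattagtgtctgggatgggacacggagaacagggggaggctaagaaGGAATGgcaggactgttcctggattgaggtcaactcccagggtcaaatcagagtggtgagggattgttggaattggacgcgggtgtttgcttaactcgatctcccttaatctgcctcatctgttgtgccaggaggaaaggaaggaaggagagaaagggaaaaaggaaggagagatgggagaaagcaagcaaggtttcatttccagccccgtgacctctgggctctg
The TTGGCA letters lie 185 bases before the start in Thbs2 and 80 bases before it in Ogn, where they directly follow GGAATG. In Ogn the TATAAA letters occur on both strands and overlap. Of the 38 promoters, 8 held TTGGCA (21.1%), against 14.1% of 32817 mouse promoters of the same length. The other motifs were in 3 promoters (AP-1, 7.89% against 7.81%), 4 (TEAD, 10.5% against 14.7%) and 6 (TATA box, 15.8% against 13.6%). Matches are descriptions of letters, not binding sites. The Mfap2 promoter overlaps a peak that closed in the mutants, and the other 4 overlap peaks that opened in at least the CARM1 knockout. The first bases of the Ogn sequence, with its TATAAA letters, lie before the start of the peak.

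Among the elastic fiber core and microfibril genes the directions split. Eln (chr5:134702593-134747323, minus strand, mm10) encodes elastin and was at 36.5, 58.8 and 89.6 CPM in TKO, at 1.56, 0.817 and 0.786 CPM in the CARM1 knockout and at 3.65, 1.6 and 0.191 CPM in the NFIB mutant. Every mutant library lay below every TKO library, with log2 fold changes of -5.87 ± 0.98 (adjusted p = 0.00441) and -5.08 ± 0.94 (adjusted p = 0.00519). Fbn1 (chr2:125300594-125507993), the main fibrillin of adult microfibrils, went the other way. Its levels were 4.80, 3.37 and 0.532 CPM in TKO, 432, 408 and 726 CPM in the CARM1 knockout and 396, 881 and 324 CPM in the NFIB mutant. The groups did not overlap, and the log2 fold changes were 7.49 ± 0.91 (adjusted p = 0.0014) and 7.52 ± 0.91 (adjusted p = 0.00111). Mfap5, a microfibril-associated glycoprotein, had no count in any TKO library. It reached 32.7, 28.8 and 110 CPM in the CARM1 knockout and 83.1, 71.3 and 68.9 CPM in the NFIB mutant. Against 3 counts in each TKO library, a mean of 0.136 CPM, it was at least 419.5-fold and at least 546.9-fold higher (adjusted p = 0.0011 and 0.000835). It passed the filter on low counts only through its mutant libraries, so these adjusted p are no separate support for the rise.

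Fbn2, the fibrillin prominent in developing tissue, varied widely within genotypes. It was at 9.03, 17.6 and 1.64 CPM in TKO, 0.339, 9.86 and 0.618 CPM in the CARM1 knockout and 0.851, 0 and 0 CPM in the NFIB mutant. The NFIB mutant libraries all lay below TKO, with a log2 fold change of -5.02 ± 2.05 (adjusted p = 0.0795). That call was lost without TKO replicate 1 or 2 or NFIB mutant replicate 2 or 3 (adjusted p from 0.128 to 0.171) and with no filter (adjusted p = 0.116), and the value was -10.44 without NFIB mutant replicate 1. In the CARM1 knockout the groups overlapped (-1.39 ± 1.73, adjusted p = 0.552). Mfap2 encodes a small microfibril-associated glycoprotein that binds fibrillin. It was at 36.3, 42.5 and 1.82 CPM in TKO, 15.3, 15.3 and 4.83 CPM in the CARM1 knockout and 20.7, 6.97 and 2.16 CPM in the NFIB mutant, with TKO replicate 3 below all mutant libraries. Neither difference passed the test (-1.18 ± 1.13, adjusted p = 0.431, and -1.43 ± 1.13, adjusted p = 0.329). For Mfap4, which binds elastin and fibrillin, the groups overlapped at 0.048, 0.437 and 1.51 CPM in TKO, 0.814, 11.3 and 0.281 CPM in the CARM1 knockout and 2.49, 0.308 and 0 CPM in the NFIB mutant, with log2 fold changes of 2.62 ± 1.90 and 0.49 ± 1.82 (adjusted p = 0.301 and 0.843).

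**Figure D2:**
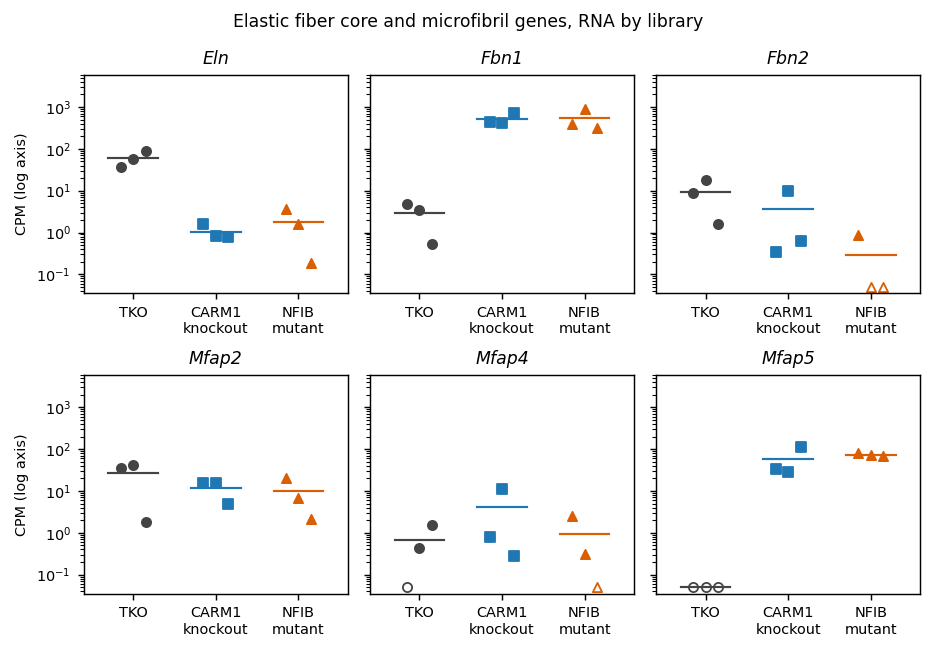
RNA level in CPM (log axis) of the 6 elastic fiber core and microfibril genes, a point per library and a line at each genotype's mean, with open symbols at 0.05 CPM for libraries under that level. Eln sits at 36.5 to 89.6 CPM in TKO and at most 3.65 CPM in the mutants, while Fbn1 and Mfap5 show the opposite order and the groups of Mfap2 and Mfap4 overlap.

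Fibulins and EMILINs rose as a group in both mutants, with 6 of 7 called higher in each. Fbln2 (chr6:91212455-91272540), a fibulin of basement membranes and elastic fibers, was at 9.22, 11.6 and 0.665 CPM in TKO. It stood at 975, 1174 and 1513 CPM in the CARM1 knockout and 572, 450 and 858 CPM in the NFIB mutant, log2 fold changes of 7.42 ± 1.02 (adjusted p = 0.00226) and 6.45 ± 0.97 (adjusted p = 0.00234). Efemp1, which encodes fibulin-3, was at 1.49, 2.76 and 0 CPM in TKO, 131, 33.7 and 241 CPM in the CARM1 knockout and 257, 304 and 194 CPM in the NFIB mutant. No mutant library of either gene reached down to the TKO range, and the Efemp1 fold changes were 6.57 ± 1.29 (adjusted p = 0.00804) and 7.47 ± 1.34 (adjusted p = 0.00454). Fbln5 and Efemp2 encode fibulins needed for elastin assembly, and Emilin1 and Emilin2 encode glycoproteins at the elastin surface. These 4 genes rose by 3.75 to 6.11 in the CARM1 knockout and by 3.97 to 6.84 in the NFIB mutant on the log2 scale, with every mutant library above every TKO library. Fbln1, the fibulin with the highest level per length in TKO, was the exception. Its levels overlapped at 166, 149 and 63.9 CPM in TKO, 84.7, 165 and 89 CPM in the CARM1 knockout and 217, 131 and 228 CPM in the NFIB mutant (-0.16 ± 0.42, adjusted p = 0.783, and 0.60 ± 0.42, adjusted p = 0.272).

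Of the latent TGF-beta binding proteins, Ltbp1, Ltbp2 and Ltbp3 rose in both mutants and Ltbp4 did not pass the test. Ltbp1 holds latent TGF-beta in the matrix and was already present in TKO, at 75.7, 47.3 and 44.7 CPM. It was at 445, 916 and 232 CPM in the CARM1 knockout and 403, 500 and 490 CPM in the NFIB mutant, higher by 3.25 ± 0.50 and 3.05 ± 0.50 (adjusted p = 0.0033 and 0.00309). Ltbp2, a microfibril protein that does not bind latent TGF-beta, was at 0.0961, 0.831 and 0.399 CPM in TKO, 218, 124 and 245 CPM in the CARM1 knockout and 19.8, 179 and 22.9 CPM in the NFIB mutant. Its log2 fold changes were 8.75 ± 1.28 and 7.35 ± 1.21 (adjusted p = 0.00274 and 0.00326), and the groups did not overlap for Ltbp1 or Ltbp2. Ltbp3, which also carries latent TGF-beta, moved least of the 3. It was at 113, 70.2 and 35.7 CPM in TKO, 160, 362 and 153 CPM in the CARM1 knockout and 251, 191 and 340 CPM in the NFIB mutant, higher by 1.62 ± 0.50 (adjusted p = 0.0391) and 1.84 ± 0.51 (adjusted p = 0.0222). The CARM1 knockout call for Ltbp3 was lost without TKO replicate 2 (adjusted p = 0.104) or CARM1 knockout replicate 2 (adjusted p = 0.122). Ltbp4, needed for elastic fibers of the lung, was at 67.1, 54.2 and 125 CPM in TKO, 45.8, 77 and 35 CPM in the CARM1 knockout and 38.7, 60.5 and 14.4 CPM in the NFIB mutant, overlapping groups with log2 fold changes of -0.64 ± 0.55 (adjusted p = 0.387) and -1.11 ± 0.56 (adjusted p = 0.138). Ltbp4 was called lower in the NFIB mutant without NFIB mutant replicate 2 (-1.62, adjusted p = 0.0794) and with library totals alone (-1.45, adjusted p = 0.0673).

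The lysyl oxidases, copper enzymes that cross-link elastin and collagen, were higher in every mutant library than in every TKO library for all 5 genes. Lox (chr18:52516067-52529867) was at 15.1, 2.45 and 0.886 CPM in TKO, 498, 945 and 1440 CPM in the CARM1 knockout and 525, 764 and 443 CPM in the NFIB mutant. It rose by 7.29 ± 1.16 and 6.55 ± 1.12 on the log2 scale (adjusted p = 0.00373 and 0.00375). Loxl1, which acts chiefly on elastin, was at 0, 1.88 and 0.177 CPM in TKO, 293, 171 and 152 CPM in the CARM1 knockout and 240, 302 and 351 CPM in the NFIB mutant, a rise of 8.20 ± 1.22 and 8.73 ± 1.24 (adjusted p = 0.0029 and 0.00191). Lox and Loxl1 were thus high in the same libraries in which elastin RNA was low. Loxl2 and Loxl3 rose by 4.78 and 5.15 in the CARM1 knockout and by 5.12 and 5.79 in the NFIB mutant. Loxl4, singled out after its values were seen, was at 1.10, 2.41 and 0.133 CPM in TKO, 6.92, 7.64 and 17.2 CPM in the CARM1 knockout and 6.57, 12.5 and 204 CPM in the NFIB mutant, where replicate 3 stood apart. It rose in the NFIB mutant by 5.92 ± 1.61 (adjusted p = 0.0214), which was 2.97 (adjusted p = 0.069) without that library. In the CARM1 knockout the log2 fold change was 3.12 ± 1.43 (adjusted p = 0.122), called without NFIB mutant replicate 1 or 3 (adjusted p = 0.0916 and 0.0494).

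Small leucine-rich proteoglycans rose together, with 6 of 7 genes called in the CARM1 knockout and 5 in the NFIB mutant, but with wide spread between libraries. Dcn encodes decorin, which binds collagen fibrils. It was at 2.26, 4.77 and 38.4 CPM in TKO, 2431, 947 and 553 CPM in the CARM1 knockout and 622, 2810 and 243 CPM in the NFIB mutant (6.43 ± 1.53, adjusted p = 0.0159, and 6.34 ± 1.52, adjusted p = 0.0135). Bgn, which encodes the related biglycan, was at 52.2, 26.7 and 2.79 CPM in TKO, 2724, 1457 and 2306 CPM in the CARM1 knockout and 821, 1036 and 1129 CPM in the NFIB mutant (6.31 ± 0.998, adjusted p = 0.00364, and 5.19 ± 0.95, adjusted p = 0.00486). For both genes every mutant library lay above every TKO library. Lum, which encodes lumican and is given because a call rested on single libraries, was at 0, 0 and 0.931 CPM in TKO, 265, 71.1 and 32.6 CPM in the CARM1 knockout and 0.0608, 24.2 and 0.127 CPM in the NFIB mutant. It was called in the CARM1 knockout (8.59 ± 2.65, adjusted p = 0.0385), a call lost without TKO replicate 1 or 2 or CARM1 knockout replicate 1 (adjusted p from 0.102 to 0.104), and the value was 14.11 without TKO replicate 3. In the NFIB mutant the log2 fold change was 4.67 ± 2.29 (adjusted p = 0.131), -1.67 without replicate 2 and called without replicate 1 (5.26, adjusted p = 0.0932).

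Prelp, which encodes a proteoglycan anchoring basement membranes to collagen, rose by 4.31 ± 1.36 (adjusted p = 0.0421) in the CARM1 knockout and 5.84 ± 1.46 (adjusted p = 0.0158) in the NFIB mutant. Its TKO libraries were at 1.24 to 4.76 CPM, the CARM1 knockout at 10.4 to 81.5 CPM and the NFIB mutant at 15.1 to 422 CPM, so the groups did not overlap. Leaving out TKO replicate 2 or 3 ended the first call (adjusted p = 0.116 and 0.104), and the NFIB mutant value was 3.58 without NFIB mutant replicate 2. Ogn encodes osteoglycin and reached at most 18.3 CPM. It was at 0.384, 0.175 and 1.24 CPM in TKO, 4.34, 2.68 and 14.5 CPM in the CARM1 knockout and 5.17, 0.555 and 18.3 CPM in the NFIB mutant (3.56 ± 1.34, adjusted p = 0.0722, and 3.72 ± 1.35, adjusted p = 0.0564). These calls were lost without any of TKO replicates 1 and 2 and CARM1 knockout replicates 1 and 3 (adjusted p from 0.108 to 0.175) in the CARM1 knockout, and without TKO replicate 1 or 2 or NFIB mutant replicate 3 (adjusted p from 0.142 to 0.195) in the NFIB mutant. Fmod, the fibromodulin gene, had 2 counts over the TKO libraries, at most 0.048 CPM, and 0.191 to 2.98 CPM in the mutants (adjusted p = 0.0234 and 0.0204). It too passed the filter only through its mutant libraries. The ratio to TKO of the summed counts was 43.3 in the CARM1 knockout (95% exact counting interval 11.5 to 365.3) and 40.4 in the NFIB mutant (10.7 to 341.1). Its fitted NFIB mutant log2 fold change was 5.02, and 3.11 without NFIB mutant replicate 1. Aspn, the asporin gene, did not exceed 0.758 CPM anywhere.

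Of the large hyaluronan-binding proteoglycans only Vcan could be tested. Vcan, the versican gene, was at 156, 274 and 11.8 CPM in TKO, 1220, 947 and 294 CPM in the CARM1 knockout and 1745, 1937 and 320 CPM in the NFIB mutant. All mutant libraries lay above all TKO libraries. The log2 fold change of 2.48 ± 1.11 in the CARM1 knockout did not pass the test (adjusted p = 0.115), though it did without CARM1 knockout replicate 3 (2.93, adjusted p = 0.090). In the NFIB mutant it was 3.18 ± 1.14 (adjusted p = 0.0547), a call lost without TKO replicate 1, NFIB mutant replicate 1 or NFIB mutant replicate 2 (adjusted p = 0.124, 0.106 and 0.123). Acan, the aggrecan gene of cartilage, was at 0.144, 1.01 and 0.0886 CPM in TKO, at 0 in the CARM1 knockout and at 0.0608, 0.308 and 0.0635 CPM in the NFIB mutant, too low to test.

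Adhesive and matricellular glycoproteins included Sparc and Fn1, the leading genes of the mutants per length, and 5 of 6 were called higher in each. Fn1 (chr1:71585520-71653200) encodes fibronectin and was at 138, 64.8 and 234 CPM in TKO, 4984, 5393 and 2245 CPM in the CARM1 knockout and 4787, 5449 and 3895 CPM in the NFIB mutant (4.85 ± 0.59, adjusted p = 0.00134, and 5.01 ± 0.59, adjusted p = 0.000972). Sparc (chr11:55394500-55423183), the collagen-binding osteonectin gene, was at 17.9, 10.2 and 24.8 CPM in TKO, 2074, 3077 and 2163 CPM in the CARM1 knockout and 1246, 1455 and 2276 CPM in the NFIB mutant. Its genotype means differed 138-fold and 94-fold, with log2 fold changes of 7.11 ± 0.49 (adjusted p = 0.000331) and 6.55 ± 0.48 (adjusted p = 0.000264), and libraries of a genotype lay close together. Sparcl1, its relative, did not follow. It was at 0.0961, 1.18 and 9.93 CPM in TKO, 1.97, 0.0583 and 0.45 CPM in the CARM1 knockout and 68.9, 5.55 and 0.635 CPM in the NFIB mutant, overlapping groups with log2 fold changes of -2.18 ± 1.96 (adjusted p = 0.405) and 2.74 ± 1.96 (adjusted p = 0.281).

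Tnc encodes tenascin-C, a glycoprotein of developing and healing tissue, and was at 22.5, 3.06 and 0.886 CPM in TKO. In the CARM1 knockout it was at 854, 927 and 188 CPM and in the NFIB mutant at 633, 1810 and 675 CPM, clear of the TKO range (6.22 ± 1.35, adjusted p = 0.0116, and 6.88 ± 1.40, adjusted p = 0.00717). Postn and Tnxb, named after their values were seen, rose in both mutants but to unlike levels. Postn, the periostin gene, was at 0.288, 0.306 and 0.487 CPM in TKO, 110, 83.2 and 373 CPM in the CARM1 knockout and 3.40, 0.986 and 1.91 CPM in the NFIB mutant. No library of a genotype overlapped another genotype, and the rises were 9.0 ± 0.89 (adjusted p = 0.000778) and 2.52 ± 0.74 (adjusted p = 0.0277). Tnxb, the tenascin-X gene, showed the reverse order, at 0.192, 1.18 and 0.576 CPM in TKO, 21.1, 5.77 and 20.1 CPM in the CARM1 knockout and 342, 185 and 83.8 CPM in the NFIB mutant (4.57 ± 0.85, adjusted p = 0.00652, and 8.27 ± 0.98, adjusted p = 0.00105).

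**Figure D3:**
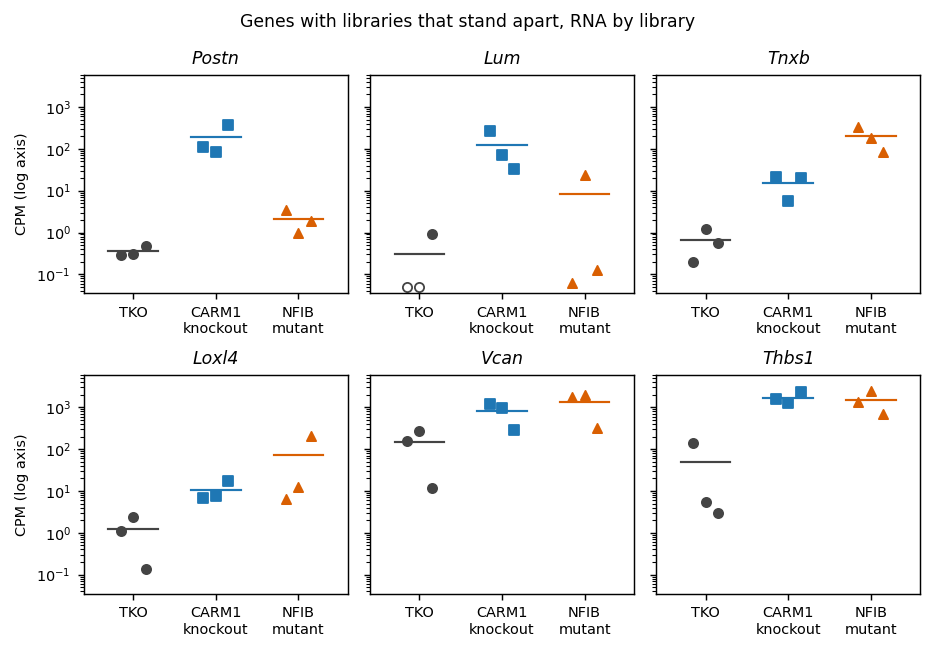
RNA level in CPM (log axis) of 6 genes in which libraries or genotypes stood apart, a point per library and a line at each genotype's mean, with open symbols at 0.05 CPM for libraries under that level. Postn is high in the CARM1 knockout and Tnxb in the NFIB mutant. Lum is at 32.6 to 265 CPM in the CARM1 knockout. In the NFIB mutant Lum and Loxl4 each have a single high library, and Thbs1 has a single high TKO library at 137 CPM.

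Thrombospondins and spondins rose with 4 of 5 called in each mutant. Thbs1 encodes thrombospondin-1, an adhesive glycoprotein that can activate latent TGF-beta. It was at 137, 5.47 and 2.92 CPM in TKO, 1547, 1244 and 2281 CPM in the CARM1 knockout and 1365, 2517 and 701 CPM in the NFIB mutant (5.12 ± 1.49, adjusted p = 0.0314, and 4.98 ± 1.47, adjusted p = 0.0289). TKO replicate 1 stood apart, and without it the log2 fold changes were 8.67 and 8.52. Thbs2 (chr17:14665500-14694235), a related matricellular protein gene, was at 3.56, 3.15 and 0.133 CPM in TKO, 476, 690 and 227 CPM in the CARM1 knockout and 1738, 1811 and 458 CPM in the NFIB mutant (7.67 ± 1.21, adjusted p = 0.00364, and 9.19 ± 1.29, adjusted p = 0.00183). Spon2, a secreted spondin gene, was at 1.10, 7.52 and 0.487 CPM in TKO, 112, 298 and 8.03 CPM in the CARM1 knockout and 705, 489 and 72.5 CPM in the NFIB mutant (5.51 ± 1.63, adjusted p = 0.0337, and 7.11 ± 1.75, adjusted p = 0.0148). For these 3 genes and Thbs3 no mutant library reached the TKO range. Thbs3, a pentameric thrombospondin gene, moved least, by 1.84 ± 0.33 and 1.95 ± 0.33 (adjusted p = 0.00521 and 0.00334), from 7.87 to 11.2 CPM in TKO to 21.7 to 49.1 CPM in the mutants. Spon1, the F-spondin gene, was at 6.92, 14.5 and 13.8 CPM in TKO, 158, 12.9 and 11.2 CPM in the CARM1 knockout and 23.3, 47.6 and 4.32 CPM in the NFIB mutant. Its groups overlapped (2.37 ± 1.19, adjusted p = 0.152, and 1.09 ± 1.15, adjusted p = 0.461), and it was called in the CARM1 knockout without replicate 3 (2.91, adjusted p = 0.0917).

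**Figure D4:**
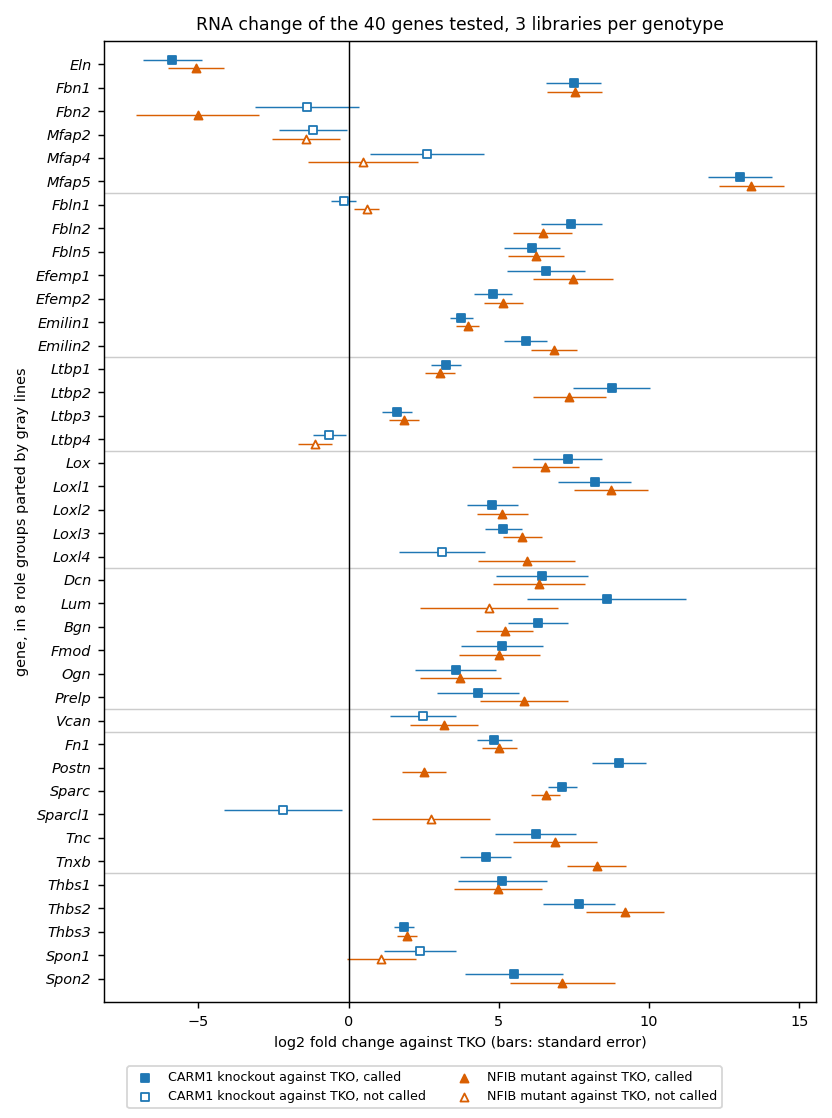
Log2 fold change against TKO of the 40 genes tested (rows, in 8 role groups parted by gray lines), with standard errors from the fit, filled where called and open where not. Most genes lie to the right of 0 in both mutants, while Eln lies at -5.87 and -5.08.

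Set against each other, the mutants gave no call for these genes. Of the 40 tested, 0 passed in the edgeR quasi-likelihood test of the CARM1 knockout against the NFIB mutant, and 2 had an unadjusted p under 0.05. Over all 15514 genes 0% were called as well. DESeq2's Wald test called 1 gene higher, Postn, and 2 lower. Its share over all genes was not taken, so this count has no background beside it. For Postn the difference was 6.49 ± 0.79 on the log2 scale (adjusted p = 0.115), with adjusted p from 6.79e-16 to 0.489 over the alternatives. For Tnxb it was -3.70 ± 0.78 (adjusted p = 0.451), with adjusted p from 0.000493 to 0.749. A missed threshold does not show that the mutants were alike, and for both genes the 3 libraries of a mutant lay clear of the 3 of the other.

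Other genes of the same pathways were taken from lists of 80 genes, also chosen with earlier results known, of which 66 were tested. The CARM1 knockout had 29 higher and 3 lower, the NFIB mutant 32 higher and 6 lower, beside 20.5% higher and 18.3% lower and 22.3% and 23.5% over all genes tested. Enzymes that assemble glycosaminoglycan chains were called higher for 12 and 13 of 24 genes and lower for 0 in either mutant. Other matrix glycoproteins were higher for 13 and 15 of 28 genes tested (34 listed), with 1 lower in each. Of the other proteoglycans 14 of 22 were tested, with 4 higher in each mutant and 2 and 5 lower, shares of 28.57% higher in each and 14.29% and 35.71% lower. Svep1, which encodes a large adhesive glycoprotein, was at 0, 0 and 0.222 CPM in TKO, 111, 33.8 and 103 CPM in the CARM1 knockout and 257, 227 and 29.6 CPM in the NFIB mutant (9.97 ± 1.39, adjusted p = 0.00239, and 11.03 ± 1.43, adjusted p = 0.00145). Nid1, the basement membrane linker nidogen, rose by 6.89 and 7.61 (adjusted p = 0.000634 and 0.000393), and Podnl1, a small leucine-rich repeat protein gene, by 6.54 and 5.49 (adjusted p = 0.000743 and 0.000857). Among genes called lower in both mutants with a mean log2 CPM of at least 5 in the genotype where they were highest there were 2, both proteoglycans known from the nervous system. Spock2 was at 441, 280 and 241 CPM in TKO, 0.0678, 0.408 and 16.6 CPM in the CARM1 knockout and 1.28, 0.123 and 0.0635 CPM in the NFIB mutant (-5.80, adjusted p = 0.0337, and -9.33, adjusted p = 0.00995). Ncan, the neurocan gene, was at 156, 191 and 55 CPM in TKO, 0, 0.0583 and 11.3 CPM in the CARM1 knockout and 0.669, 0 and 0 CPM in the NFIB mutant (-5.13, adjusted p = 0.0738, and -9.17, adjusted p = 0.0191). In the CARM1 knockout, Spock2 and Ncan were highest in replicate 3, the library that also kept the neuroendocrine markers.

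Chromatin at the start sites of the 42 genes opened at more peaks than it closed at. Of the 60 start-site peaks, 33 were called higher and 11 lower in the CARM1 knockout (edgeR, adjusted p under 0.1 and log2 fold change of at least 0.5 in size), and 31 and 9 in the NFIB mutant. Over all 111116 peaks tested the shares were 38.7% higher and 32.4% lower in the CARM1 knockout and 39.3% and 34.0% in the NFIB mutant. Among the 20857 tested peaks at start sites of all genes, 18.98% were higher and 35.11% lower in the CARM1 knockout and 19.4% and 39.58% in the NFIB mutant. The median log2 fold change of the 60 peaks was 1.33 and 1.25, against -0.32 and -0.38 for start-site peaks of all genes. The split depended on the scaling. Of the peaks called in the CARM1 knockout 75% were higher, against 89.6% (43 higher, 5 lower) with library totals alone and 84.8% (39 higher, 7 lower) when scaled on start-site peaks of genes with unchanged RNA. In the NFIB mutant the shares were 77.5%, 83.3% (40 and 8) and 81.2% (39 and 9). Both scalings also moved the median of all peaks upward, by 0.57 and 0.406 in the CARM1 knockout and 0.567 and 0.482 in the NFIB mutant. Shares over all peaks were not taken under them, so these counts have no matching background. Between the mutants 0 of the 60 peaks were called by edgeR, with 5 at an unadjusted p under 0.05, and 0% of all peaks. DESeq2 also called 0 of the 60. Without CARM1 knockout replicate 3 the counts were 34 higher and 9 lower in the CARM1 knockout, and 30 higher and 9 lower in the NFIB mutant.

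Mfap5, Thbs2, Thbs1, Lox, Efemp1 and Ogn were among the genes whose start sites opened in both mutants. The peak at Mfap5 (chr6:122512808-122514581) was at 0.637, 0.371 and 0.38 CPM in TKO, 7.52, 7.91 and 14.4 CPM in the CARM1 knockout and 13.2, 16.6 and 19.9 CPM in the NFIB mutant (4.41 ± 0.43, adjusted p = 3.99e-05, and 5.15 ± 0.44, adjusted p = 1.89e-05). At Thbs2 the peak (chr17:14693059-14695007) held the promoter printed above and was at 0.924, 0.865 and 0.845 CPM in TKO, 23, 13.2 and 11.3 CPM in the CARM1 knockout and 19.6, 21.7 and 18.5 CPM in the NFIB mutant (4.17 ± 0.34, adjusted p = 1.66e-05, and 4.50 ± 0.34, adjusted p = 1.1e-05). TKO libraries of these peaks lay close together and far below the mutants. The Mfap5 peak lies at an internal annotated start, 7849 bp into the gene. Thbs1 went from 4.33, 4.63 and 6.84 CPM to 77.3, 60 and 142 CPM in the CARM1 knockout and 62.9, 80.6 and 50.3 CPM in the NFIB mutant (4.14 ± 0.35, adjusted p = 1.98e-05, and 3.62 ± 0.34, adjusted p = 2.91e-05). Lox went from 3.41, 3.15 and 2.7 CPM to 32.3, 47.1 and 45.7 CPM and to 25.3, 54.6 and 41.9 CPM, rises of 3.75 ± 0.30 and 3.71 ± 0.30 (adjusted p = 1.45e-05 and 1.34e-05). The TKO replicate 1 library that stood apart in Thbs1 RNA has no counterpart here, as all 3 TKO libraries were low at this peak. Efemp1, whose promoter holds the AP-1 letters, was at 0.829, 0.896 and 1.39 CPM, then 9.25, 6.74 and 14.1 CPM and 11.6, 16.8 and 15.4 CPM (3.27 ± 0.40, adjusted p = 0.000124, and 3.82 ± 0.41, adjusted p = 5.44e-05). The Ogn peak was at 0.0319, 0 and 0.169 CPM in TKO, 1.19, 0.979 and 1.6 CPM in the CARM1 knockout and 1.14, 0.216 and 1.82 CPM in the NFIB mutant (4.30 ± 1.04, adjusted p = 0.0045, and 4.06 ± 1.04, adjusted p = 0.00562).

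At the strongest start-site peak of each gene, moderate gains were found at Fbn1 (2.12 ± 0.23 and 2.33 ± 0.23), Fbln2 (2.29 ± 0.32 and 2.24 ± 0.32), Bgn (2.48 ± 0.41 and 2.17 ± 0.41) and Fn1 (1.37 ± 0.28 and 1.27 ± 0.28), all called in both mutants. The further start-site peaks of Thbs1 (3.55 and 3.54) and the 4 further ones of Dcn (fitted values of 1.67 to 4.63, for 2 of them with at most 3 counts in any TKO library) were also called higher in both. Loxl1 gained 3.30 and 3.77, Tnc 2.62 and 3.10, and Loxl2 2.28 and 2.35. Loxl3, Loxl4, Efemp2, Fbln5, Emilin1 and Emilin2 also opened in both, by 0.69 to 2.01 in the CARM1 knockout and 0.75 to 2.10 in the NFIB mutant, and the Fbln5 value in the NFIB mutant was 1.19 without replicate 2. Dcn gained 1.89 and 1.80, and its CARM1 knockout call was lost without CARM1 knockout replicate 1 (adjusted p = 0.1003). Postn had 2 start-site peaks. The upstream peak rose in both mutants by 3.73 ± 0.68 and 3.22 ± 0.68, while the peak over the printed promoter was called in the CARM1 knockout (2.24) and not in the NFIB mutant (0.85, adjusted p = 0.27), where it was called without NFIB mutant replicate 1 (1.28, adjusted p = 0.0872). The Lum peak was called in the CARM1 knockout (2.63) but not without its replicate 1 (adjusted p = 0.120), and gave 0.70 in the NFIB mutant, not called. Ltbp2 gained 0.70 in the CARM1 knockout (adjusted p = 0.0808), a call lost without any of TKO replicates 1 and 2 and the 3 CARM1 knockout replicates (adjusted p from 0.1055 to 0.2018), and its NFIB mutant value of 0.29 did not pass.

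Start sites also closed, among them the strongest start-site peaks of Eln and Fbn2. The Eln peak (chr5:134746654-134748798) was at 24.6, 29.3 and 30.7 CPM in TKO, 7.44, 3.88 and 5.47 CPM in the CARM1 knockout and 6.7, 7.53 and 4.59 CPM in the NFIB mutant (-2.33 ± 0.31, adjusted p = 0.000177, and -2.17 ± 0.31, adjusted p = 0.000223). The Fbn2 peak was at 16.8, 22.4 and 11.7 CPM in TKO, 1.65, 3.5 and 1.23 CPM in the CARM1 knockout and 1.31, 1.08 and 0.393 CPM in the NFIB mutant (-2.99 ± 0.56, adjusted p = 0.00113, and -4.20 ± 0.59, adjusted p = 0.000225). In both cases all mutant libraries lay below TKO, and Fbn2 chromatin therefore closed in the CARM1 knockout although its RNA did not pass the test there. A weaker start-site peak of Eln (chr5:134728506-134728910), at 0.254 to 0.574 CPM in TKO, was higher in the NFIB mutant by 1.61 (adjusted p = 0.0848), a call lost without any 1 of the TKO replicates, CARM1 knockout replicate 2 or NFIB mutant replicate 1 or 2 (adjusted p from 0.101 to 0.221) and with DESeq2 size factors (adjusted p = 0.116). A further Fbln2 peak (chr6:91266039-91266923) was at 3.12, 4.36 and 2.32 CPM in TKO, 0.594, 0.672 and 0.629 CPM in the CARM1 knockout and 0.628, 1.16 and 0.785 CPM in the NFIB mutant (-2.37, adjusted p = 0.00157, and -1.93, adjusted p = 0.00388). A further Ltbp4 peak (chr7:27310061-27311167) was at 8.86, 10.2 and 10.8 CPM in TKO, 1.03, 0.806 and 4.88 CPM in the CARM1 knockout and 1.08, 0.626 and 1.2 CPM in the NFIB mutant (-2.15, adjusted p = 0.0131, and -3.36, adjusted p = 0.00165). At these Fbln2 and Ltbp4 peaks every mutant library lay below every TKO library. Both lie at internal annotated starts, the Fbln2 peak 54026 bp into its gene. The weaker Eln peak also lies at an internal start, 18615 bp into Eln. At Mfap2 (chr4:141010048-141013063) the peak was at 30.3, 32 and 14.3 CPM in TKO, 11.6, 13.1 and 7.64 CPM in the CARM1 knockout and 12.2, 12 and 4.77 CPM in the NFIB mutant (-1.25 ± 0.41, adjusted p = 0.0201, and -1.40 ± 0.41, adjusted p = 0.0112), and the CARM1 knockout call was lost with library totals alone. Spon1 gave -1.34 ± 0.45 and -2.39 ± 0.47 (adjusted p = 0.0224 and 0.00139), and its CARM1 knockout call was lost with library totals alone (-0.77, adjusted p = 0.137) and with scaling on unchanged genes (-0.89, adjusted p = 0.119). Mfap4 gave -1.48 ± 0.66 and -2.17 ± 0.68 (adjusted p = 0.0701 and 0.0157), calls lost without TKO replicate 2 in both mutants and without CARM1 knockout replicate 1 or 3 in the CARM1 knockout, where the value was -2.24 without replicate 2. That CARM1 knockout call was also lost with both of these scalings (-0.81, adjusted p = 0.271, and -1.07, adjusted p = 0.164).

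RNA and start-site accessibility did not move together at every gene. Taking the strongest start-site peak of each of 37 genes, both were called higher for 22 genes in the CARM1 knockout and 21 in the NFIB mutant. The share over all genes was not taken for this pairing of RNA and peak, so its counts have no background beside them. RNA was higher while the peak was lower for Prelp and Sparc in the CARM1 knockout and for Sparc in the NFIB mutant. The Sparc peak (chr11:55423514-55424440) lay at -794 bp from the nearest annotated start and was at 7.24, 9.92 and 12.2 CPM in TKO, 3.15, 6.26 and 4.13 CPM in the CARM1 knockout and 2.9, 2.91 and 5.36 CPM in the NFIB mutant. Its calls (-1.11 ± 0.42, adjusted p = 0.035, and -1.39 ± 0.42, adjusted p = 0.0128) were lost with library totals alone, and that of the CARM1 knockout also without CARM1 knockout replicate 1 and when scaled on unchanged genes. At Prelp the log2 fold change was -2.13 ± 0.68 (adjusted p = 0.0171) in the CARM1 knockout and -1.02 ± 0.65 (adjusted p = 0.185) in the NFIB mutant, where replicate 2 alone stayed at the TKO level, and -2.24 (adjusted p = 0.00853) without it. The peak was lower and the RNA not called for Mfap2, Mfap4 and Spon1 in both mutants and for Fbn2 in the CARM1 knockout. For Loxl4 the peak was higher and the RNA not called in the CARM1 knockout. RNA rose with no called change at the strongest start-site peak for Ltbp1, Ltbp3, Thbs3 and Spon2 in both mutants and for Ltbp2, Prelp and Vcan in the NFIB mutant. Single libraries decided some of these. The Ltbp3 peak was called in both mutants without TKO replicate 1 (0.71 and 0.70), the Sparcl1 peak without TKO replicate 3 (3.44 and 3.56), and the Spon2 peak without replicate 3 of the mutant concerned (1.81 and 1.73). With library totals alone the Ltbp1, Ltbp3, Vcan, Sparcl1 and Spon2 peaks were called higher in both mutants. The Vcan values were 0.65 and 0.61 (adjusted p = 0.0357 and 0.0447). The Ltbp2 peak was then also called in the NFIB mutant (0.84, adjusted p = 0.0525). Scaling on unchanged genes called the Ltbp3, Sparcl1 and Spon2 peaks higher in both mutants, and the Ltbp1 and Ltbp2 peaks in the NFIB mutant. The strongest Ltbp1 peak lies at an internal start, 173010 bp into the gene. The peak at the gene's 5′ start (chr17:75004772-75007061) was lower in both mutants (-0.63, adjusted p = 0.0384, and -1.38, adjusted p = 0.000757) while the total RNA rose. Its CARM1 knockout call was lost without TKO replicate 2 or CARM1 knockout replicate 1 or 3 (adjusted p from 0.117 to 0.143), with library totals alone (-0.026, adjusted p = 0.927) and with scaling on unchanged genes (-0.23, adjusted p = 0.411). Across the 37 genes the RNA and peak log2 fold changes had a Pearson r of 0.682 and 0.756, a description over genes that share libraries and TKO controls.

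**Figure D5:**
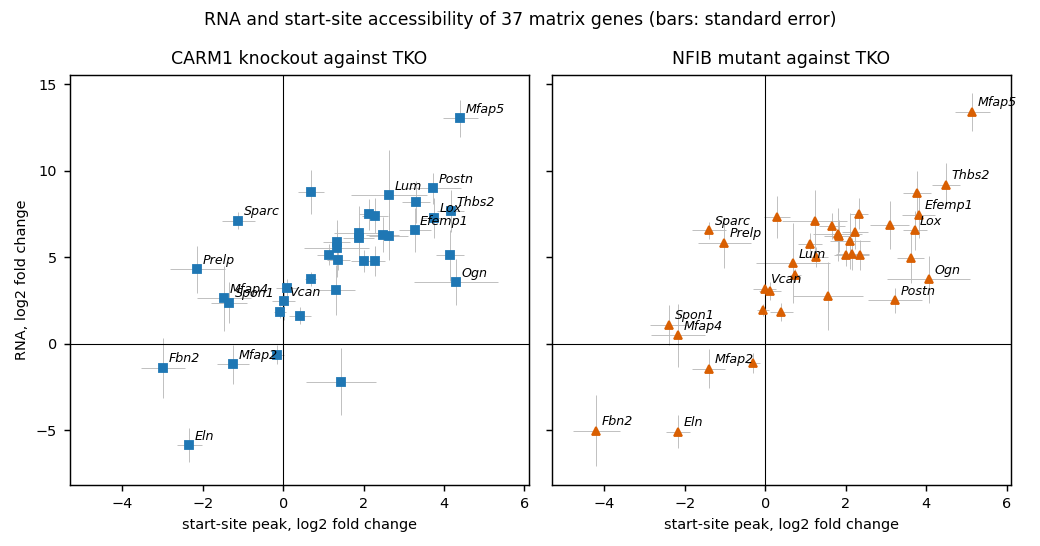
RNA log2 fold change (vertical axis) against log2 fold change of the strongest start-site peak (horizontal axis) for 37 genes, CARM1 knockout left and NFIB mutant right, with standard errors. Most points lie in the upper right, Eln lies in the lower left, and Sparc lies in the upper left at 7.11 and -1.11 in the CARM1 knockout.

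Peaks lying anywhere from 10000 bp upstream to the end of each gene numbered 325, of which 324 were tested and 265 were not start-site peaks. Of these, 214 were higher in the CARM1 knockout and 52 lower, 210 and 47 in the NFIB mutant, and 198 were higher and 46 lower in both. That is 66.05% and 64.81% higher, against 38.7% and 39.3% over all peaks. Lower were 16.05% and 14.51%, against 32.4% and 34.0% over all peaks. The share of all peaks called alike in both mutants was not taken, and both comparisons used the same TKO libraries. Fbn1 had 25 peaks, of which 25 and 24 were higher and 0 lower. Loxl1 opened at 8 of 8 peaks, Efemp1 at 9 of 9, and Mfap5 and Thbs1 at 3 of 3 each. Tnxb, which had no start-site peak, opened at 10 and 11 of 11. Sparc opened at 6 of 7, the peak by its start being the only lower one. Fbn2 closed at 5 of 5 peaks and Eln at 3 of 6. Mixed loci were Ltbp1 with 45 peaks (30 and 28 higher, 6 and 7 lower), Fbln2 with 13 (5 higher in each, 6 and 5 lower) and Fbln1 with 11 (6 higher in each, 3 and 2 lower). Without CARM1 knockout replicate 3 the counts were 217 higher and 47 lower in the CARM1 knockout.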

How the data were processed

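RNA-seq and ATAC-seq were made from mouse small cell lung cancer cells of 3 genotypes, 3 libraries per genotype and assay. The authors deposited raw counts per Ensembl gene (trim-galore, hisat2 and htseq-count on mm10) and raw counts per peak (Bowtie2 alignment, MACS2 peaks, featureCounts per the file headers), and the submitters' processing notes also name DESeq and Genrich. The methods name RefSeq transcripts while the table holds Ensembl identifiers, and bedtools multicov for the peak counts. The 5 summary rows of the RNA table stayed out of library sizes. Reads counted to no feature were 10.0 to 12.2% in TKO and 3.65 to 5.17% in the mutants. Column names starting with C, KO and N were read as TKO, CARM1 knockout and NFIB mutant. The strand setting is not given in the sources used here, and 22 of the 42 genes overlap another annotated gene (21 on the opposite strand), so their reads cannot be fully told apart.

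Counts were tested in R 4.3.3 with edgeR 4.0.16 (filterByExpr, TMM, robust quasi-likelihood F test, all 9 libraries of an assay in 1 model, no block), and Benjamini-Hochberg adjustment ran over all genes or all peaks tested. Printed CPM are on the TMM scale, whose factors ran from 0.891 to 1.19 in RNA-seq and from 0.680 to 1.21 in ATAC-seq, highest in TKO for RNA-seq and lowest in TKO for ATAC-seq, while shares of counts are of unscaled totals. SE is the log2 fold change divided by the square root of F. The script was tested on simulated data. Alternatives used DESeq2 1.42.0, other scalings and filters, a stricter threshold, a replicate block and each library left out. With 3 libraries against 3 an exact permutation test of 1 gene cannot go below p = 0.1, so none was run. P-values measure the spread between these animals' libraries. Intervals and limits from counts cover counting error only.

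The genes and pathway lists were chosen with earlier results of these data known. In each role group every library's value is given for the 2 genes with the highest mean per kilobase, the 2 with the largest absolute change called in both mutants, genes called lower in either mutant and up to 2 called in neither, and the rest by range. Lum, Prelp, Ogn, Loxl4, Postn, Tnxb and Thbs3 were added after their values were seen. From the pathway lists came the 3 largest rises and falls called alike in both mutants with a mean log2 CPM (0.01 added) of at least 5 in the higher genotype. Only 2 falls qualified.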

Additional observations from a re-analysis of the deposited data

How the results depend on the processing

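For the RNA of the 42 genes, 20 to 32 were called higher in the CARM1 knockout and 21 to 31 in the NFIB mutant over 17 alternatives each, and the lowest values came with at least 10 counts required in every library, where 25 of the genes were tested. Start-site peaks called higher ranged from 24 to 43 and from 23 to 40 over 19 alternatives. Under these alternatives no called RNA value and no called value of the 60 start-site peaks reversed its direction, and of 257 called peaks in and near the genes in the NFIB mutant 1 reversed under 1 alternative (0 of 266 in the CARM1 knockout). RNA called lower in the CARM1 knockout numbered 1, but 2 with DESeq2 or with no filter and 0 with at least 10 counts in every library. In the NFIB mutant it numbered 2, but 1 with no filter or at an adjusted p under 0.05, 0 with at least 10 counts in every library, 3 with library totals alone (Ltbp4 added), and 1 to 2 when each library was left out. RNA of the mutants set against each other gave 1 higher and 2 lower with DESeq2. Start-site peaks lower in the CARM1 knockout numbered 5 with library totals alone and 7 with scaling on unchanged genes, against 11. Those scalings moved the median of all peaks by 0.57 and 0.406 in the CARM1 knockout and by 0.567 and 0.482 in the NFIB mutant, and DESeq2 size factors by -0.177 and -0.15. Library totals moved the median of all genes by -0.271 and -0.326. Peaks in and near the genes gave 128 higher and 31 lower in the CARM1 knockout and 124 and 27 in the NFIB mutant with at least 10 counts in every library, where fewer peaks were tested (199). Between the mutants they gave 4 higher and 2 lower with DESeq2, whose shares over all genes or peaks were not taken. These peaks gave 1 lower with library totals alone or only the groups compared, and 0 to 1 lower when each library was left out. RNA differences from TKO called by DESeq2 alone of the 2 tests were Loxl4, Vcan and Spon1 in the CARM1 knockout (adjusted p = 0.0354, 0.0416 and 0.0715) and Lum in the NFIB mutant (adjusted p = 0.0579), and DESeq2 gave no adjusted p for Tnc. For the counts that moved under other settings than fewer features or samples, the cause was not tested.

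With a replicate block the RNA calls were 30 higher and 1 lower in the CARM1 knockout and 31 and 2 in the NFIB mutant, the start-site calls 32 and 11 and 31 and 9. The replicate numbers were shared only as names, since deviations of same-numbered libraries correlated from -0.297 to 0.118 in RNA and from -0.142 to 0.118 in ATAC-seq, so this fit is no paired test. The block ended the Lum RNA call (8.38, adjusted p = 0.1015) and the Ltbp2 peak call (0.68, adjusted p = 0.109) in the CARM1 knockout and added Vcan RNA there (3.06, adjusted p = 0.016) and the Sparcl1 peak in the NFIB mutant (2.28, adjusted p = 0.0798). It also ended the call of a weaker Fn1 start-site peak in the NFIB mutant (1.63, adjusted p = 0.117). Under the block the uncalled Mfap4 RNA value in the NFIB mutant was -0.19 and the uncalled Vcan peak value 0.046.

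RNA values and start-site peaks were followed singly (each gene's strongest peak and further peaks called in either mutant). Those that changed sign were all uncalled in the TMM-scaled edgeR fit. When each library was left out, the RNA log2 fold change in the CARM1 knockout ranged from -0.28 to 4.08 for Mfap4, -0.53 to 0.11 for Fbln1 and -3.83 to 0.38 for Sparcl1, and in the NFIB mutant from -2.05 to 1.92 for Mfap4, -1.67 to 10.19 for Lum and -0.26 to 5.29 for Sparcl1. The start-site peaks ranged in the CARM1 knockout from -0.21 to 0.29 for Ltbp1, -0.25 to 0.0093 for Ltbp4, -0.29 to 0.27 for Vcan and -0.15 to 0.0036 for Thbs3, and in the NFIB mutant from -0.11 to 0.27 for Ltbp1, -0.23 to 0.56 for Ltbp2, -0.92 to 1.21 for Lum, -0.31 to 0.24 for Vcan and -0.19 to 0.014 for Thbs3. With library totals alone the Vcan peak was at 0.61 in the NFIB mutant and was called higher. The Ltbp4 and Thbs3 peaks were then at 0.41 and 0.49 in the CARM1 knockout and 0.25 and 0.50 in the NFIB mutant. Scaled on unchanged genes they were at 0.27 and 0.32, then 0.17 and 0.40, and Vcan at 0.46. With at least 10 counts in every library, Ltbp4 and Thbs3 were at 0.013 and 0.075 in the CARM1 knockout and Vcan and Thbs3 at 0.16 and 0.11 in the NFIB mutant. DESeq2 size factors and the Wald test put Ltbp1 at -0.10 and -0.091 and Vcan at -0.17 and -0.16 in the CARM1 knockout, and Ltbp1 at -0.037 and -0.031 in the NFIB mutant. Only the groups compared put Vcan at -0.011 in the CARM1 knockout. Depth limits the genes near 0 in TKO, where 3 counts are 0.131 to 0.203 CPM in RNA-seq and 0.058 to 0.127 CPM in ATAC-seq.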
